A study of Homo sapiens with 12 samples.

Results

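The MYC/MAX/MXD network is a set of transcription factors that share one partner protein, and 10 of the 19923 protein-coding genes counted in each library encode it. The genes were chosen by name. MYCN, MYC and MYCL encode the MYC family, MAX encodes the shared partner, and MXD1, MXI1, MXD3, MXD4, MNT and MGA encode the antagonists. All 10 had reads in the libraries, and all 10 passed the filter on low counts in each comparison. The libraries came from SK-N-BE2 and NGP cells, established neuroblastoma cell lines with amplified MYCN and a genotype labelled WT. SK-N-BE2 cells were given 12 µM STM2457 and NGP cells 1 µM STM2457, and control cells of each line were given DMSO. Every group was kept for 6 days. STM2457 inhibits METTL3, the methyltransferase that writes N6-methyladenosine (m6A) on messenger RNA. Each of the 4 groups held 3 replicates. The labels do not say whether replicates were separate cultures, so p-values measure the spread between these samples, which may be technical. Line, dose and sequencing run cannot be told apart, since each line had its own dose and the file headers name a separate run for each.

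MYC proteins bind DNA only when paired with MAX, mostly at the E-box CACGTG, and recruit histone acetyltransferases and other coactivators that raise transcription. MXD proteins, MNT and MGA also pair with MAX and bind the same sites, where MXD proteins and MNT recruit the SIN3 histone deacetylase complex and MGA belongs to a Polycomb complex, PRC1.6. MAX is therefore shared by activators and antagonists. Amplified MYCN marks high-risk neuroblastoma, and the amplified gene is usually the main MYC family member expressed there.

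The libraries held between 47242379 and 58159937 counted reads. NGP DMSO replicate 1 lay away from its group on the fourth principal component, at -42.0 against 29.2 and 13.1 for replicates 2 and 3. That component held 1.51% of the variance. On the first, with 80.3%, it stood at 124 against 126 and 128. NGP values are also given without this library. Of the neuroblastoma markers, TH, the first enzyme of catecholamine synthesis, was at 234 CPM in SK-N-BE2 DMSO and near 0 in NGP DMSO, at 0.512 CPM, where CPM is read counts scaled to a common library size by TMM over all 12 libraries. For the 8 neuroblastoma markers, the SK-N-BE2 controls had sums from 3277 to 4395 CPM. Treated SK-N-BE2 libraries were all lower, with sums from 2688 to 3004 CPM, mostly through CHGA (2039 ± 369 and 1261 ± 56.8 CPM, SD, n = 3). Of the 7 markers tested there, 3 were lower and 1 higher at an adjusted edgeR p under 0.05. Over all genes, 27.8% were lower and 26.9% higher by that threshold. The NGP sums overlapped, with a range of 1834 to 2434 CPM for controls and 2029 to 2634 CPM for treated libraries. The summed markers of Schwann, immune, epithelial, mesenchymal and endothelial cells went from between 49.3 and 54.2 with DMSO to between 99.9 and 110 with STM2457 in SK-N-BE2, mostly through the matrix gene DCN (44.6 ± 3.55 and 97.4 ± 4.96 CPM, SD, n = 3), and from between 23.0 and 25.3 to between 25.5 and 29.3 in NGP. In NGP, 4 of those 8 markers had no read with DMSO and 3 had none with STM2457. A set of 7 proliferation genes summed in SK-N-BE2 to between 807 and 901 CPM with DMSO and between 1627 and 1747 CPM with STM2457, and to between 1331 and 1460 and between 2171 and 2271 in NGP. The part of these shifts in the results that follow was not tested. In bulk libraries, fewer cells of a type and less RNA per cell cannot be told apart.

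Promoter sequence was available for 9 of the 10 genes in RefSeq (GRCh38.p14), as 14 windows of 300 bases that span 250 bases before and 50 bases after a start site. The network's own E-box, CACGTG, its variant CACGCG and 2 letter strings of E2F sites, TTTGGCGC and TTTCGCGC, were searched on both strands. CACGTG was found in the windows of MNT and MXD4, and in 7.26% of all 35116 windows of that length. CACGCG was found in windows of MGA, MXD3 and MXI1 and in 11.4% of all windows. TTTGGCGC was found in MYCN and MGA and in 0.652% of all windows, and TTTCGCGC in MYCN and in 0.515% of all windows. In MYCN these 2 strings overlap on opposite strands, 176 and 172 bases before the start. Stretches of 6 promoters that no annotated exon covers are shown, read along the gene's strand. MYCL, MAX and MNT are shown because their RNAs fell in both lines, MXD1 because it moved in opposite directions, MXD4 because with MNT it held the E-box, and MYCN because it is the amplified gene. Capitals mark the matched strings, and a match describes letters, not a bound site.
MYCN (chr2:15940352-15940549, plus strand): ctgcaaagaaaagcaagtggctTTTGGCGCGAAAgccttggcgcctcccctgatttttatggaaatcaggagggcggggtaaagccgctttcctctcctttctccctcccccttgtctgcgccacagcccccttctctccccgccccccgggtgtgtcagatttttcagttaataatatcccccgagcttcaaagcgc
MYCL (chr1:39901920-39902140, minus strand): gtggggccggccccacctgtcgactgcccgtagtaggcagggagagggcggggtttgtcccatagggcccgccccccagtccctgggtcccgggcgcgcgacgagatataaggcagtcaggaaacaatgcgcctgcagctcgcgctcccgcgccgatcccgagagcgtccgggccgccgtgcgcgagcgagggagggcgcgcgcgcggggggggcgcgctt
MAX (chr14:65101686-65101934, minus strand): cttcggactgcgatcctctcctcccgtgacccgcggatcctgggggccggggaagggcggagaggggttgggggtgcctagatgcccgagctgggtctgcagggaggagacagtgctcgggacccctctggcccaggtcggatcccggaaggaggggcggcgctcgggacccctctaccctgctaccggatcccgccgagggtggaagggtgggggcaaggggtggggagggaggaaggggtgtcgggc
MXD1 (chr2:69914859-69915040, plus strand): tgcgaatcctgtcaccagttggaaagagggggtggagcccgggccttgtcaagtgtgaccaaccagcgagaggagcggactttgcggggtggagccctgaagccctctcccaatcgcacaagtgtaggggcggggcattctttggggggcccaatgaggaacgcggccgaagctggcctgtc
MXD4 (chr4:2262110-2262359, minus strand): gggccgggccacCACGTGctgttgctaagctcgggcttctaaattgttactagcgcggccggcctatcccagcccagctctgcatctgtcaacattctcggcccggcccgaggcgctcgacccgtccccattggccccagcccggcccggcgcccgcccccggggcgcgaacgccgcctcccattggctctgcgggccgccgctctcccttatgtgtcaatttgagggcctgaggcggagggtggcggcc
MNT (chr17:2401105-2401310, minus strand): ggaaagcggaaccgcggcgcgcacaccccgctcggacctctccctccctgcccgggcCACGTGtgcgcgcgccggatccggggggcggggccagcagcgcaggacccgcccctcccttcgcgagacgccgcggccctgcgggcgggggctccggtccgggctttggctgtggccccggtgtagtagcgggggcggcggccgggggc
The E-box of MNT began 193 bases before the RefSeq start and that of MXD4 began 238 bases before it. None of the 4 strings was found in the windows of MYCL, MAX or MXD1.

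MYCN RNA exceeded that of every other member by far in all 12 libraries, and STM2457 left this order in place. Levels were compared between genes per exon length, as CPM divided by kilobases of exon (CPM per kb). That length takes all exons of a gene together, and a single transcript can be much shorter. The order of genes by level, and ratios, sums and shares across genes, therefore depend on it. MYCN had a level of 1695 ± 129 CPM per kb with DMSO and 1630 ± 9.70 with STM2457 in SK-N-BE2, and of 1517 ± 109 and 1545 ± 152 in NGP (SD, n = 3). These levels ranked 16th, 16th, 10th and 13th from the top among 14731 genes. MAX came next in both DMSO groups, at 18.4 ± 0.543 CPM per kb in SK-N-BE2 and 16.2 ± 1.09 in NGP. Its level did not separate from that of MXI1 in NGP (16.0 ± 0.781), while in SK-N-BE2 every MAX value lay above every MXI1 value (15.1 ± 0.273). MYC was last in all 4 groups, at 0.553 ± 0.0924 CPM per kb in SK-N-BE2 DMSO and 0.0572 ± 0.0201 in NGP DMSO. MYCN thus made up 99.8% of summed MYC family RNA in SK-N-BE2 DMSO and 99.4% in NGP DMSO.

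**Figure D1:**
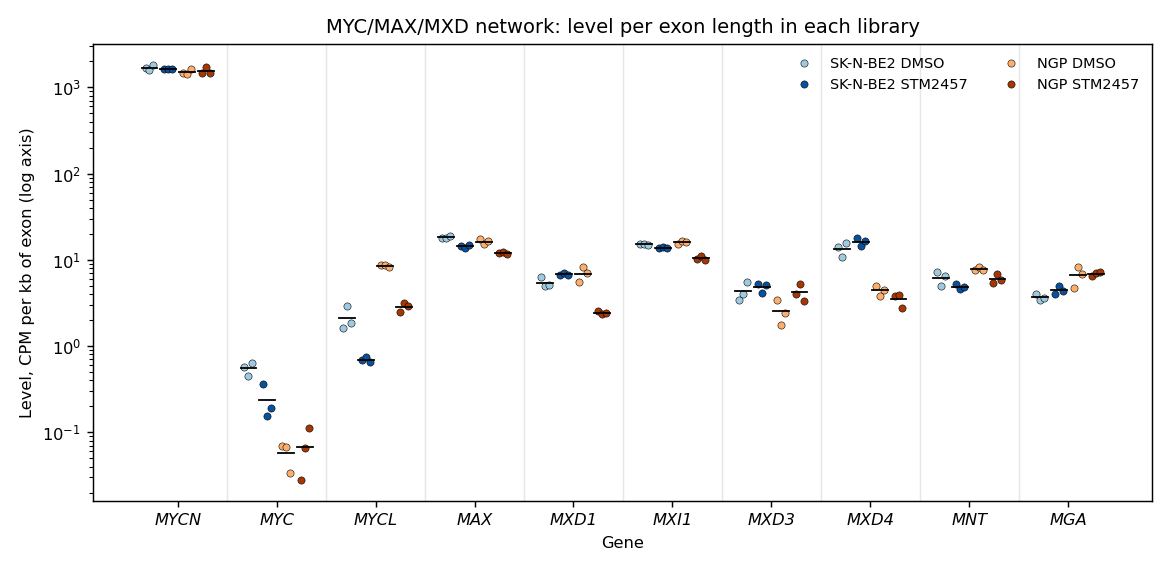
Level of each network gene in each library, in CPM per kb of exon on a log axis, with colours for the 4 groups and a bar at each group mean (n = 3). MYCN lies between 1447 and 1829 in all libraries, and MYC is the lowest gene in each group.

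Among the antagonists, the order of levels differed between the lines. In SK-N-BE2 DMSO, MXI1 and MXD4 (13.5 ± 2.49 CPM per kb) led and overlapped each other. MNT (6.22 ± 1.14), MXD1 (5.44 ± 0.732), MXD3 (4.31 ± 1.12) and MGA (3.67 ± 0.336) followed, each overlapping its neighbour. In NGP DMSO, MXI1 led alone and MXD4 stood at 4.46 ± 0.605, below MNT (7.87 ± 0.422), MXD1 (6.91 ± 1.30) and MGA (6.64 ± 1.78). MXD3 had the lowest antagonist level there, at 2.52 ± 0.813 CPM per kb.

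With STM2457, more members were called lower than higher in each line, and the amplified MYCN was called in neither. A gene is called when the adjusted p of edgeR's quasi-likelihood test, adjusted over all genes tested, is under 0.05. In SK-N-BE2, 5 of 10 members were called, 1 higher (MXD1) and 4 lower (MYC, MYCL, MAX and MNT), while 54.7% of all 14013 genes tested were called. In NGP, 6 of 10 were called, 1 higher (MXD3) and 5 lower (MYCL, MAX, MXD1, MXI1 and MNT), against 41.7% of 13610 genes. Without NGP DMSO replicate 1 the same count of 6 was obtained. The median of the members was -0.13 on the log2 scale for SK-N-BE2, against -0.02 over all genes, and -0.40 for NGP, against -0.03. Over all genes, 27.8% were called lower and 26.9% higher in SK-N-BE2, against 22.2% and 19.4% for NGP. Called in the same direction in both lines were 3 members, MYCL, MAX and MNT, all lower, against 21.3% of the 12952 genes tested in both (10.8% lower in both). The SK-N-BE2 count fell to 3 without STM2457 replicate 2 or 3.

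**Figure D2:**
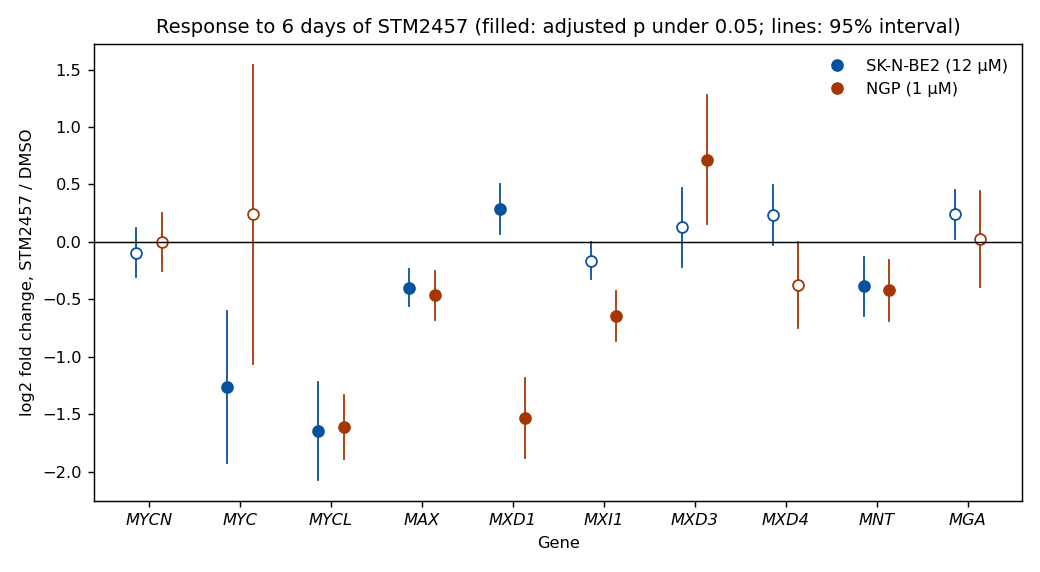
Log2 fold change of each member, STM2457 against DMSO, with its 95% interval, in SK-N-BE2 (12 µM) and NGP (1 µM); filled points have an adjusted edgeR p under 0.05. MYCL, MAX and MNT lie below 0 in both lines, and MXD1 lies above 0 in SK-N-BE2 but below it in NGP.

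MYCN, the amplified activator (plus strand of chr2:15940550-15947007), was not called in either line. Its 3 DMSO libraries of SK-N-BE2 read 4406, 4112 and 4784 CPM and its STM2457 libraries 4242, 4292 and 4260 CPM. In NGP the DMSO libraries read 3826, 3785 and 4298 CPM and the STM2457 libraries 3838, 4500 and 3790 CPM. The treated and control values overlapped in both lines. In SK-N-BE2 the log2 fold change had a 95% interval of -0.31 to 0.12 (adjusted edgeR p 0.453). For NGP the interval was -0.25 to 0.25 (adjusted edgeR p 0.995). The lines did not differ in DMSO either, with a log2 difference of 0.16 (95% interval -0.06 to 0.38, adjusted edgeR p 0.174). MYCNOS, a long noncoding RNA on the other strand, covers 3.75% of MYCN exon length, and its reads there cannot be told apart because strand was not used in counting.

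MYC, the family member that is widely expressed in other tissues (chromosome 8, plus strand), fell in SK-N-BE2 from a level that was already low. The DMSO libraries held 150, 103 and 152 reads, or 2.62, 2.07 and 2.91 CPM, and the STM2457 libraries 90, 36 and 46 reads, or 1.66, 0.703 and 0.876 CPM. All treated values lay below all control values. The log2 fold change was -1.26 (SE 0.31), or 2.40-fold lower, with an adjusted edgeR p of 0.00326. NGP libraries held 16, 16 and 8 MYC reads with DMSO and 6, 14 and 26 with STM2457. These overlap, and the log2 fold change of 0.24 was not called (adjusted edgeR p 0.762). With so few reads its 95% interval was wide, from -1.06 to 1.54, so changes of either direction within it remain possible. The difference between the lines was not called (-1.496, SE 0.66, adjusted edgeR p 0.101). With DMSO, MYC was 9.60-fold higher in SK-N-BE2 than in NGP (log2 difference 3.26, SE 0.46, adjusted edgeR p 1.92e-05).

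MYCL, the third family member, first found amplified in small cell lung cancer (chr1:39895426-39902256, minus strand), had the largest fall common to both lines among the members. In SK-N-BE2 it read 8.27, 14.6 and 9.41 CPM with DMSO and 3.49, 3.75 and 3.33 CPM with STM2457. In NGP it read 44.01, 44.4 and 41.8 CPM with DMSO and 12.5, 16.0 and 14.8 CPM with STM2457. No treated value reached a control value of its own line, although every treated NGP library still held more MYCL RNA than 2 of the 3 SK-N-BE2 controls. The log2 fold change was -1.65 in SK-N-BE2 (SE 0.20, 3.13-fold lower, adjusted edgeR p 1.38e-05) and -1.61 in NGP (SE 0.12, 3.06-fold lower, adjusted edgeR p 3.88e-05). The NGP fall was also called without DMSO replicate 1 (adjusted edgeR p 2.70e-06). The responses differed by -0.02 on the log2 scale, with a 95% interval from -0.55 to 0.50 (adjusted edgeR p 0.970). In DMSO, MYCL was 4.03-fold lower in SK-N-BE2 than in NGP (log2 difference -2.01, SE 0.18, adjusted edgeR p 1.24e-07).

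**Figure D3:**
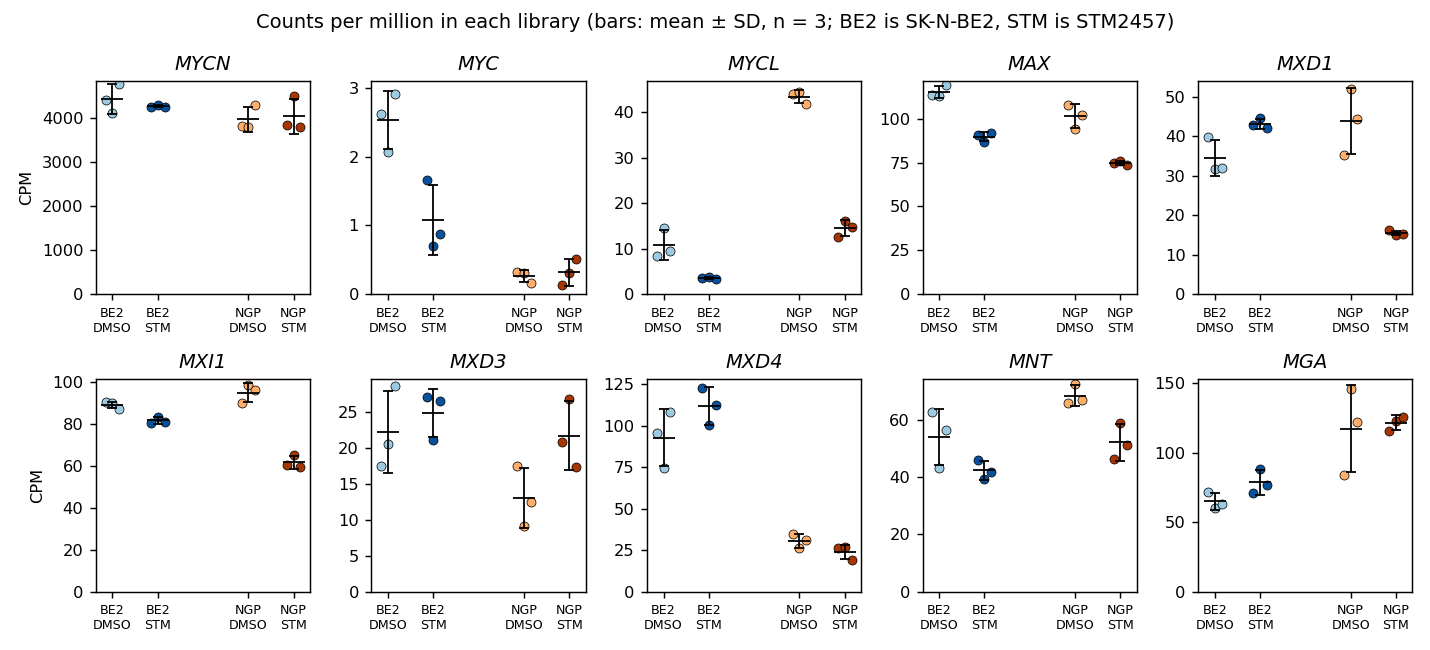
CPM of each of the 10 members in each library on a linear axis from 0, with group mean and SD (n = 3) and a scale of its own for each gene. MYCL, MAX and MXI1 of treated NGP libraries lie below all NGP controls, and MYCN overlaps between treatments.

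MAX, the partner shared by all other members (chr14:65006174-65102695, minus strand), fell in both lines. SK-N-BE2 libraries held 113, 113 and 119 CPM with DMSO and 90.7, 86.8 and 91.8 CPM with STM2457. NGP libraries held 108, 94.3 and 102 CPM with DMSO and 74.5, 76.1 and 73.5 CPM with STM2457. Treated and control values did not overlap in either line. MAX was 1.32-fold lower in SK-N-BE2 (-0.40 on the log2 scale, SE 0.08, adjusted edgeR p 0.00059) and 1.38-fold lower in NGP (-0.47, SE 0.09, adjusted edgeR p 0.00472). Without NGP DMSO replicate 1 the latter was -0.42 (adjusted edgeR p 0.000434). The responses differed by 0.08 (95% interval -0.15 to 0.31, adjusted edgeR p 0.618). Exons of FNTB (13.1%), of CHURC1-FNTB (9.96%) and of a long noncoding RNA (2.94%) on the other strand together share 16.1% of MAX exon length. The share of MAX reads that came from them was not measured, so the MAX values are uncertain. With MAX lower and MYCN not called, the ratio of MYCN to MAX RNA per kb in SK-N-BE2 was 91.9 ± 4.63 with DMSO and 114 ± 3.94 with STM2457, and that of NGP was 93.8 ± 8.16 and 129 ± 10.5 (SD, n = 3). All treated ratios lay above all control ratios of the same line. No test was made on these ratios, whose size depends on the exon lengths used.

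MXD1, the founding MXD antagonist, induced in many cells as they leave the cell cycle (chr2:69897688-69942945, plus strand), moved in opposite directions in the lines. In NGP it read 35.4, 51.9 and 44.4 CPM with DMSO and 16.1, 15.1 and 15.2 CPM with STM2457. All treated NGP values were under 0.5 of the lowest control value. The NGP log2 fold change was -1.53 (SE 0.15, 2.89-fold lower, adjusted edgeR p 0.000144), and -1.67 without DMSO replicate 1 (adjusted edgeR p 1.08e-06). In SK-N-BE2 it read 39.9, 31.7 and 32.0 CPM with DMSO and 42.9, 44.6 and 42.1 CPM with STM2457. The treated values lay just above the controls, 1.22-fold higher (log2 fold change 0.29, SE 0.10, adjusted edgeR p 0.0276). That rise kept its call without DMSO replicate 1 (adjusted p 0.00166) and lost it without any other single library (adjusted edgeR p 0.0607 to 0.101) and in a joint fit of all 12 libraries (0.32, adjusted edgeR p 0.0591). The difference between the responses was 1.83 (SE 0.19, adjusted edgeR p 9.27e-06) and was called in all 12 fits that left out 1 library. Opposite calls in the lines were made for 4.96% of genes tested in both.

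MXI1, also known as MXD2, an antagonist once studied as a candidate tumour suppressor on chromosome 10 (chr10:110207605-110287365, plus strand), fell in NGP. It read 89.7, 98.7 and 96.0 CPM with DMSO and 60.6, 65.2 and 59.2 CPM with STM2457 there. MXI1 had a log2 fold change of -0.65 (SE 0.10, 1.56-fold lower, adjusted edgeR p 0.00109), and -0.69 without DMSO replicate 1 (adjusted edgeR p 2.93e-05). In SK-N-BE2 it read 90.1, 89.7 and 87.1 CPM with DMSO and 80.4, 83.4 and 80.9 CPM with STM2457. These groups did not overlap, as for 62.2% of genes tested in that line, but the change of -0.16 (SE 0.07) was not called (adjusted edgeR p 0.0804). The responses differed by 0.50 (SE 0.11, adjusted edgeR p 0.00341), called in all 12 fits that left out 1 library. In DMSO the lines were close, with a log2 difference of -0.09 (95% interval -0.26 to 0.07, adjusted edgeR p 0.296).

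MXD3, an antagonist often found in proliferating cells (chr5:177301461-177312757, minus strand), was the only member called higher in NGP. It read 17.5, 9.13 and 12.4 CPM with DMSO and 20.9, 26.9 and 17.4 CPM with STM2457 in that line. The highest control, replicate 1, and the lowest treated value met at the same level. MXD3 was higher by 0.72 on the log2 scale (SE 0.25, adjusted edgeR p 0.0446) and 0.98 without DMSO replicate 1 (adjusted edgeR p 0.00188). The call was lost without DMSO replicate 2 (adjusted edgeR p 0.0965) or 3 (0.122), and without STM2457 replicate 1 (0.0963) or 2 (0.148). In SK-N-BE2 it read 17.5, 20.5 and 28.7 CPM with DMSO and 27.2, 21.1 and 26.5 CPM with STM2457, a log2 fold change of 0.13 (SE 0.16) that was not called (adjusted edgeR p 0.517). The difference of -0.57 was not called (SE 0.33, adjusted edgeR p 0.205), and reached -0.86 without NGP DMSO replicate 1 (adjusted edgeR p 0.0213). MXD3 values are uncertain, since RAB24 on the same strand and PRELID1 on the other share 18% and 22.3% of its exon length.

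MXD4, an antagonist described in differentiating cells (chr4:2247432-2262109, minus strand), was the antagonist that differed most between the lines in DMSO. SK-N-BE2 libraries held 95.9, 74.3 and 108 CPM with DMSO and NGP libraries 34.6, 26.3 and 31.1 CPM. Every SK-N-BE2 value exceeded every NGP value, 3.02-fold on average (SE 0.16 on the log2 scale, adjusted edgeR p 5.51e-07). With STM2457 it read 123, 100.5 and 112 CPM in SK-N-BE2 and 26.1, 27.1 and 19.1 CPM in NGP. Neither response was called, at 0.23 in SK-N-BE2 (SE 0.12, adjusted edgeR p 0.116) and -0.37 in NGP (SE 0.16, adjusted edgeR p 0.101). Their difference was called, at 0.62 (SE 0.22, adjusted edgeR p 0.0485). It was no longer called in 8 of 12 fits without 1 library, with adjusted edgeR p from 0.0569, without NGP DMSO replicate 1, to 0.118, without NGP STM2457 replicate 3. The other such libraries were NGP DMSO replicate 3 and STM2457 replicate 1, and SK-N-BE2 DMSO replicates 1 and 2 and STM2457 replicates 1 and 3.

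MNT, a large and widely expressed antagonist that represses MYC targets in resting and in growing cells (chr17:2384073-2401104, minus strand), fell in both lines. In NGP it read 65.97, 72.7 and 66.8 CPM with DMSO and 46.2, 59.0 and 51.1 CPM with STM2457. SK-N-BE2 libraries read 62.7, 43.3 and 56.4 CPM with DMSO and 46.0, 39.4 and 42.0 CPM with STM2457. NGP groups were separate, while in SK-N-BE2 DMSO replicate 2 lay among the treated values. The log2 fold change was -0.42 in NGP (SE 0.12, 1.34-fold lower, adjusted edgeR p 0.0196) and -0.39 in SK-N-BE2 (SE 0.12, 1.31-fold lower, adjusted edgeR p 0.0145). Both calls rested on single libraries. In NGP the call was lost without DMSO replicate 2 or 3 (adjusted edgeR p 0.0519 in both) and without STM2457 replicate 1 (0.103) or 3 (0.0835). In SK-N-BE2 it was lost without DMSO replicate 1 (adjusted edgeR p 0.0607) or 3 (0.0527) and without STM2457 replicate 2 (0.0699) or 3 (0.0511). Without NGP DMSO replicate 1 the NGP value was -0.45 (adjusted edgeR p 0.00387). A long noncoding RNA on the other strand covers 12.2% of MNT exon length, so its reads may be included.

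MGA, a very large protein that carries a T-box as well as the MAX-binding region (plus strand of chr15:41621224-41773081), was called in neither line. In SK-N-BE2 it read 71.5, 60.2 and 62.8 CPM with DMSO and 70.9, 88.3 and 76.4 CPM with STM2457, where the groups overlapped through a single pair of values. The log2 fold change of 0.24 (SE 0.10) had an adjusted edgeR p of 0.0553. It was called by DESeq2 (adjusted p 0.0454), with DESeq2 size factors within edgeR (0.0491) and with no filter on low counts (0.0454). In NGP the DMSO libraries read 83.6, 146 and 122 CPM and the STM2457 libraries 116, 123 and 126 CPM. Replicate 1 was the low control there. The log2 fold change was 0.03 (SE 0.18, adjusted edgeR p 0.924), and -0.17 without that library (adjusted edgeR p 0.106). The difference between the responses was 0.22 (SE 0.22, adjusted edgeR p 0.483), and 0.40 without NGP DMSO replicate 1 (adjusted edgeR p 0.0322). MGA was 1.81-fold lower in SK-N-BE2 than in NGP with DMSO (log2 difference -0.85, SE 0.16, adjusted edgeR p 0.000231).

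Between the DMSO groups, 8 of 10 members were called, against 71.1% of 14731 genes. MYC, MAX, MXD3 and MXD4 were higher in SK-N-BE2, and MYCL, MXD1, MNT and MGA were higher in NGP. The libraries of the lines did not overlap for 7 members, as for 68.9% of genes, with MXD1 the called exception. The smaller of these were MAX (0.18, adjusted edgeR p 0.0450), MXD1 (-0.35, adjusted edgeR p 0.0288) and MNT (-0.34, adjusted edgeR p 0.0301). The count fell to 5 without NGP DMSO replicate 2 or 3 or SK-N-BE2 DMSO replicate 3, and MYC, MYCL, MXD3, MXD4 and MGA were called in all 12 fits that left out 1 library. For the difference between the responses, 3 of 10 members were called (MXD1, MXI1 and MXD4), against 30.9% of genes. For all 3 the SK-N-BE2 response minus the NGP response was above 0, a call made for 17% of genes. Without NGP DMSO replicate 1 the count was 4 (MXD1, MXI1, MXD3 and MGA).

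Summed antagonist RNA was lower with STM2457 in NGP and overlapped between treatments in SK-N-BE2. Its level was 48.2 ± 4.24 CPM per kb with DMSO and 51.1 ± 1.72 with STM2457 in SK-N-BE2. In NGP it was 44.5 ± 2.82 with DMSO and 33.5 ± 2.51 with STM2457 (SD, n = 3), and all treated values were lower. The ratio of MYCN to summed antagonist RNA per kb was 35.2 ± 1.43 with DMSO and 32.0 ± 1.26 with STM2457 in SK-N-BE2, where all treated values lay below all controls. In NGP it was 34.2 ± 3.11 and 46.1 ± 1.14, and all treated values lay above all controls. In that line the DMSO mean was 33.7 without replicate 1. The ratio of summed antagonist to MAX RNA per kb in SK-N-BE2 was 2.62 ± 0.194 with DMSO and 3.56 ± 0.0861 with STM2457, and that of NGP was 2.76 ± 0.3595 and 2.80 ± 0.162. These sums and ratios are descriptions without a test, and they depend on the exon lengths used.

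The make-up of the antagonist RNAs also differed between the groups. Shares also depend on the length used, and MXD3 has 5154 bases of exon but a canonical transcript of 1067 bases. Per kb of all exons, MXI1 held the largest share in NGP, 36.1% ± 0.581 with DMSO and 31.2% ± 0.721 with STM2457. In treated SK-N-BE2, MXD4 held 31.8% ± 2.14 and MXI1 27.1% ± 1.43. In NGP the MXD1 share went from 15.5% ± 1.97 to 7.32% ± 0.683 and the MXD3 share from 5.77% ± 2.22 to 12.5% ± 1.83. MGA went from 14.8% ± 3.11 to 20.6% ± 1.75 of the NGP sum, which became smaller, while its own level overlapped between treatments. In SK-N-BE2 the MNT share went from 12.8% ± 1.45 to 9.55% ± 0.423 and the MXD1 share from 11.3% ± 1.35 to 13.3% ± 0.778 (SD, n = 3).

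**Figure D4:**
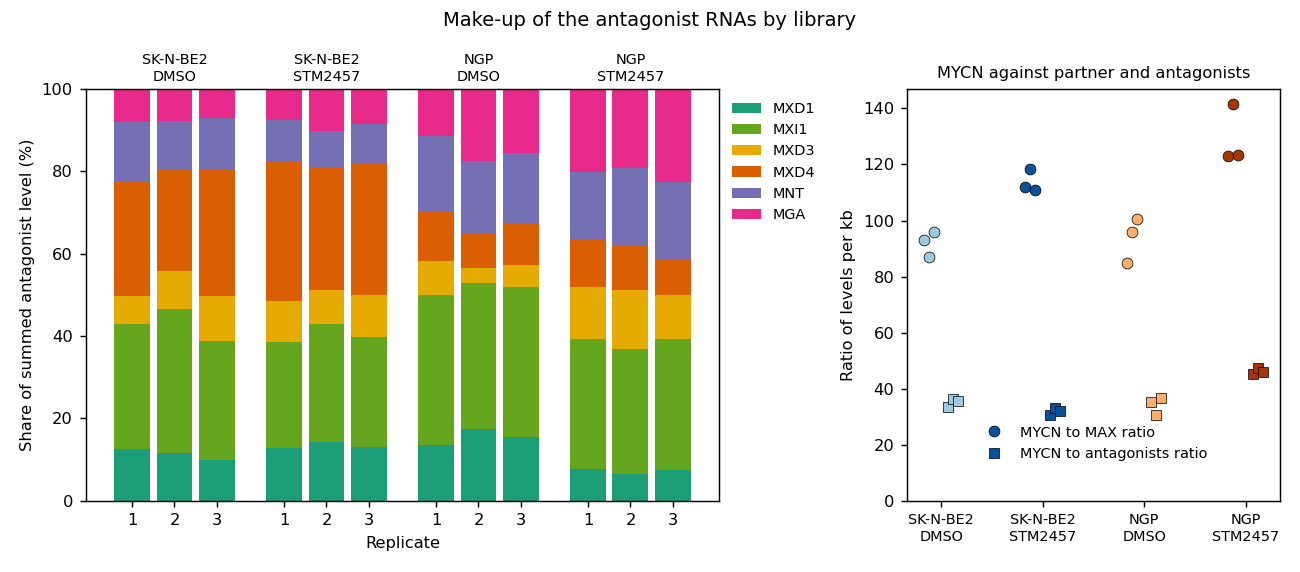
Left, share of each antagonist in the summed antagonist level (percent of CPM per kb) in each library. Right, ratio of MYCN to MAX and of MYCN to summed antagonists (levels per kb) in each library; all treated NGP libraries lie above the NGP controls in both ratios, while treated SK-N-BE2 libraries lie above their controls in the ratio to MAX and below them in the ratio to antagonists.

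Coactivators that MYC proteins recruit, 15 genes, moved in both directions. In SK-N-BE2, 4 were called higher and 4 lower, and in NGP 4 higher and 2 lower, with median log2 fold changes of -0.06 and 0.12. That was 53.3% and 40% of the list, near the 54.7% and 41.7% of all genes called. HCFC1, a chromatin adaptor that binds MYC, rose from 108 ± 12.6 to 201 ± 13.0 CPM in SK-N-BE2 (0.85, adjusted edgeR p 7.35e-06) and from 121 ± 14.8 to 235 ± 26.9 CPM in NGP (0.94, adjusted edgeR p 0.0006925). BRD8, a subunit of the TIP60 complex, rose by 0.34 and 0.44 (adjusted edgeR p 0.00192 and 0.00524). KAT2A, an acetyltransferase of the SAGA complex whose exons overlap another gene by 10.7% and is therefore uncertain, fell by -0.26 in SK-N-BE2 (adjusted edgeR p 0.0116) and rose by 0.79 in NGP (adjusted edgeR p 0.00200). Its SK-N-BE2 call was lost without STM2457 replicate 2 (adjusted edgeR p 0.0709) and in the joint fit (0.108). The NGP counts were 7 higher and 4 lower without DMSO replicate 1, and 1 lower call was left without any single STM2457 library. In SK-N-BE2, 2 lower calls were left without STM2457 replicate 2 or 3.

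Of the 14 SIN3 corepressor genes, through which MXD proteins and MNT act, 5 were called higher and 3 lower in SK-N-BE2 and 2 higher and 2 lower in NGP. That was 57.1% and 28.6% of the list, against 54.7% and 41.7% of all genes. The median log2 fold changes were -0.04 and 0.12. RBBP7, a histone-binding subunit, rose in SK-N-BE2 (0.58, SE 0.08, adjusted edgeR p 2.94e-05), and ING2, a subunit that reads methylated histone H3, fell there (-0.83, SE 0.14, adjusted edgeR p 0.000268). Neither was called in NGP, and the differences between the lines were called for both (0.42 and -0.85, adjusted edgeR p 0.0213 and 0.0111). The RBBP7 difference lost its call in 3 of 12 fits, without NGP STM2457 replicate 2 (adjusted edgeR p 0.0508), SK-N-BE2 DMSO replicate 3 (0.0644) or STM2457 replicate 2 (0.0539). ARID4B, a DNA-binding subunit, fell in NGP (-0.72, SE 0.12, adjusted edgeR p 0.00215) without a call in SK-N-BE2 (-0.14, adjusted edgeR p 0.214), and is uncertain through an overlap of 12.9% with RBM34. The NGP counts were 5 higher and 3 lower without DMSO replicate 1, and no higher call was left without any single STM2457 library. In SK-N-BE2, 2 higher calls were left without STM2457 replicate 1 or 3, and 3 without STM2457 replicate 2 or DMSO replicate 1 or 3.

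In the PRC1.6 complex, which MGA brings to DNA together with E2F6, 4 of 11 genes were called higher and 4 lower in SK-N-BE2, and 3 higher and 2 lower in NGP (medians 0.01 and 0.08). Called were 72.7% and 45.5% of the list, against 54.7% and 41.7% of all genes. CBX1, which encodes heterochromatin protein HP1 beta, rose from 93.1 ± 8.18 to 184 ± 3.29 CPM in SK-N-BE2 and from 289 ± 27.6 to 471 ± 9.36 CPM in NGP (SD, n = 3). Its log2 fold changes were 0.94 and 0.68 (adjusted edgeR p 1.19e-06 and 0.000959). TFDP1, the dimer partner of E2F factors, rose by 0.38 and 0.52 (adjusted edgeR p 0.000930 and 0.00439). TFDP2, its relative, rose in SK-N-BE2 (0.62, adjusted edgeR p 0.000144) and was not called in NGP (0.08, adjusted edgeR p 0.575), with a called difference of 0.55 (adjusted edgeR p 0.00980). The NGP counts were 4 and 4 without DMSO replicate 1, and no lower call was left without DMSO replicate 3 or any single STM2457 library. In SK-N-BE2, 2 lower calls were left without STM2457 replicate 2 or 3.

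Genes that set the stability of MYC and MYCN proteins, 18 in all, included 6 called higher and 3 lower in SK-N-BE2 and 4 higher and 1 lower in NGP, with medians of 0.07 and -0.08. This came to 50% and 27.8% of the list, below the 54.7% and 41.7% of all genes. AURKA, the kinase that protects MYCN protein from degradation, rose by 0.57 in SK-N-BE2 (SE 0.08, adjusted edgeR p 7.86e-05) and by 0.87 in NGP (SE 0.10, adjusted edgeR p 0.000263). PLK1, another mitotic kinase that stabilises MYCN, rose by 0.40 and 0.85 (adjusted edgeR p 0.00105 and 0.000961), and is uncertain through a noncoding RNA over 11.6% of its exons. FBXL14, a ubiquitin ligase subunit that targets MYC proteins, fell by -1.02 and -1.49 (adjusted edgeR p 1.14e-05 and 0.000416). CIP2A, an inhibitor of the phosphatase PP2A, rose in SK-N-BE2 (1.39, SE 0.10, adjusted edgeR p 1.55e-07) without a call in NGP (0.40, adjusted edgeR p 0.103), and the difference of 0.99 was called (adjusted edgeR p 0.00292). SKP2 was called in opposite directions, at -0.47 in SK-N-BE2 (adjusted edgeR p 0.000380) and 0.35 in NGP (adjusted edgeR p 0.0283). That NGP call was lost without any single STM2457 library (adjusted edgeR p 0.0577 to 0.108). GSK3B rose in SK-N-BE2 (0.53, adjusted edgeR p 0.000396) without a call in NGP (0.18, adjusted edgeR p 0.405). The list holds genes of opposite roles, and protein was not measured. AURKA and PLK1 are also genes of dividing cells, and the summed proliferation genes were higher in the same treated libraries, as given above. NGP had 6 higher and 5 lower calls without DMSO replicate 1, and 2 lower calls without DMSO replicate 2.

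Of targets that MYC proteins are known to activate, 10 of 24 tested in SK-N-BE2 were called higher and 3 lower (median 0.08), and in NGP 10 of 25 were higher and 2 lower (median 0.22). Called in either direction were 54.2% and 48% of the list, against 54.7% and 41.7% of all genes, of which 26.9% and 19.4% were higher and 27.8% and 22.2% lower. TFRC, the transferrin receptor, went from 105 ± 20.7 to 437 ± 17.4 CPM in SK-N-BE2 and from 128 ± 13.8 to 346 ± 20.7 CPM in NGP (SD, n = 3). Its log2 fold changes were 2.02 and 1.41 (adjusted edgeR p 2.83e-08 and 4.67e-05). TERT, the catalytic subunit of telomerase, rose in SK-N-BE2 from 3.79 ± 0.864 to 13.4 ± 0.802 CPM (1.78, SE 0.16, adjusted edgeR p 1.04e-06). In NGP its change was 0.46 (adjusted edgeR p 0.0455), a call kept without DMSO replicate 1 and lost without any other single library (adjusted edgeR p 0.0832 to 0.141). LDHA, the glycolytic enzyme lactate dehydrogenase A, fell in SK-N-BE2 (-0.60, adjusted edgeR p 0.000368) and rose in NGP (1.28, adjusted edgeR p 5.05e-05). ODC1, the first enzyme of polyamine synthesis and a classic MYC target, fell in NGP from 845 ± 56.7 to 336 ± 56.3 CPM (-1.35, SE 0.13, adjusted edgeR p 0.000131) without a call in SK-N-BE2 (0.08, adjusted edgeR p 0.622). NGP had 13 higher and 3 lower calls without DMSO replicate 1, and 6 higher calls without STM2457 replicate 1 or 3.

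Of 6 genes that MYC or MYCN are known to repress, 5 were called lower and 1 higher in SK-N-BE2, and 3 lower and 1 higher in NGP, with median log2 fold changes of -0.62 and -0.51. Over all genes, 27.8% and 22.2% were called lower. CDKN1A, the cell cycle inhibitor p21, went from 77.0 ± 5.62 to 18.2 ± 1.52 CPM in SK-N-BE2 and from 175 ± 13.7 to 66.7 ± 3.60 CPM in NGP (SD, n = 3), with log2 fold changes of -2.12 and -1.41 (adjusted edgeR p 2.79e-09 and 3.13e-05). NDRG1, a stress-induced differentiation gene, had -1.05 and -0.70 (adjusted edgeR p 3.88e-06 and 0.0167). The NGP call was lost without DMSO replicate 3 (adjusted edgeR p 0.0625), STM2457 replicate 1 (0.0652) or 2 (0.0729). TGM2, a transglutaminase, fell by -0.82 and -2.05 (adjusted edgeR p 0.00208 and 0.00294), from 3.71 ± 0.144 and 1.31 ± 0.349 CPM. NGFR, the low-affinity neurotrophin receptor, rose from 12.7 ± 1.09 to 39.7 ± 3.39 CPM in SK-N-BE2 (adjusted edgeR p 6.26e-08) and had -0.33 in NGP (adjusted edgeR p 0.0779). It is uncertain through an overlap of 22.3%. NGP had 2 higher calls without DMSO replicate 1. The summed proliferation genes were higher in the treated libraries in which CDKN1A was lower.

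**Figure D5:**
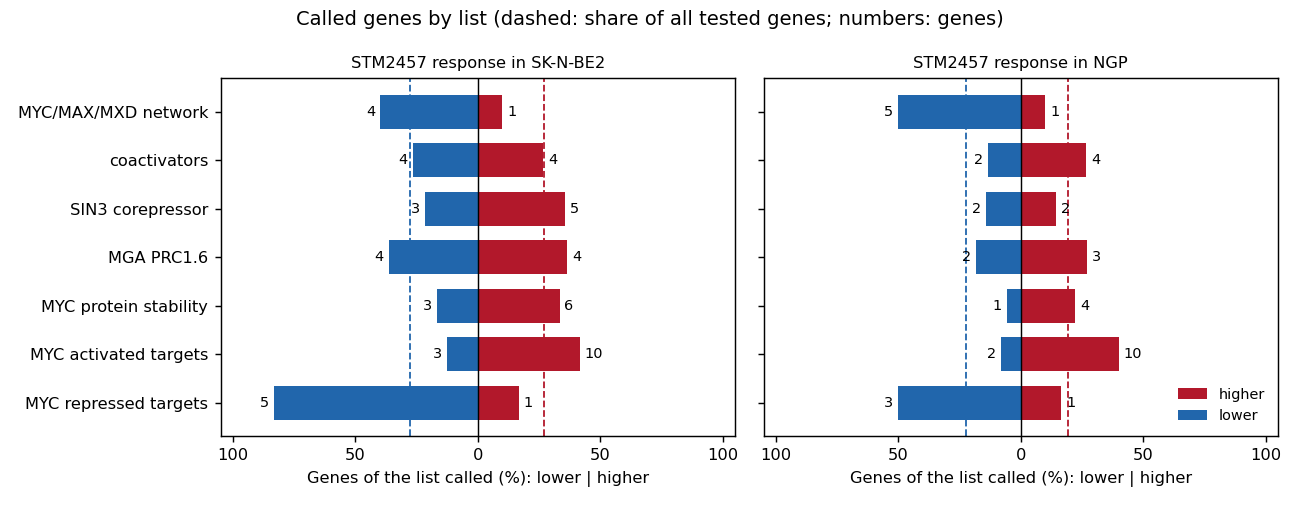
Share of each list called lower (left of 0) and higher (right of 0) with STM2457 in each line, in percent of members tested, with gene numbers at the bars; dashed lines mark the shares of all tested genes, 27.8% and 26.9% for SK-N-BE2 and 22.2% and 19.4% for NGP. Repressed targets show 5 and 3 lower calls, and activated targets 10 higher calls in each line.

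The MLX arm runs beside the network: MLX, a relative of MAX, pairs with the glucose-sensing proteins MLXIP and MLXIPL and with some MXD proteins and MNT. MLX and MLXIP were tested and not called in either line, at -0.10 and -0.15 for SK-N-BE2 and 0.12 and 0.11 for NGP (adjusted edgeR p 0.277, 0.143, 0.362 and 0.423). MLXIP stood at 173 ± 15.1 CPM in SK-N-BE2 DMSO and at 1372 ± 124 CPM in NGP DMSO (SD, n = 3). MLXIPL had too few reads to be tested in either line. It had 28 reads summed over the SK-N-BE2 DMSO libraries and 4 with STM2457, and 47 and 0 in NGP. A count of 0 allows up to 3 fragments, and most fragments count double. MLXIPL was called lower in NGP with no filter on low counts. In NGP it was also called lower in fits without DMSO replicate 2 or any single STM2457 library, in which it passed that filter. Likewise it was called lower in SK-N-BE2 without DMSO replicate 1 or STM2457 replicate 3. MLXIP was called lower in SK-N-BE2 without DMSO replicate 2, and MLX is uncertain through an overlap of 18.2% with PSMC3IP. TXNIP and ARRDC4, arrestin genes induced by these proteins, were called in both lines. TXNIP went from 219 ± 25.2 to 83.5 ± 4.15 CPM in SK-N-BE2 and from 16.3 ± 7.17 to 38.8 ± 3.55 CPM in NGP. The log2 fold changes were -1.43 (adjusted edgeR p 8.44e-08) and 1.23 (adjusted edgeR p 0.00691), and the difference was -2.64 (SE 0.30, adjusted edgeR p 2.09e-05). ARRDC4 fell by -1.23 and -0.74 (adjusted edgeR p 3.44e-07 and 0.00315).

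Across the 12 libraries, after the mean of each line was subtracted, the genes most like each main member in log2 CPM were listed as a description, with no test. MYCN was most like WIZ (Pearson r 0.893) and P4HTM (0.872). MAX was most like PYCR1 (0.993) and TCIRG1 (0.990), and MYCL was most like GOSR2 (0.997) and PRNP (0.994). MXD1 had MFSD6 and SV2C (both 0.991) and MNT had ATXN2L (0.964) and MBD6 (0.933). The points share libraries and their treatment step, so that step enters each r.

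GGACT, the commonest core of m6A sites, was counted along the sense strand of each member's canonical GENCODE 44 transcript. MXD3 had 2.81 per kb and MYCL 1.99 per kb, at or above 97.3% and 90% of 19033 genes, whose median was 0.923 per kb. Counts were small, from 2 to 7 per transcript, so densities depend much on length. MXD3 had 3 matches in 1067 bases, and MAX and MYCN also had 3, in 2010 and 2613 bases. MAX had 1.49, MNT 1.42, MYC 1.34 and MYCN 1.15 per kb. MXI1 had 0.576, MGA 0.574, MXD4 0.517 and MXD1 0.36 per kb, all under that median. The members called lower in both lines, MYCL, MAX and MNT, were among those with more of these letters. The MNT calls rested on single libraries and the MAX values are uncertain, as given above. MXD3, which did not fall in either line, also had more of these letters. Also above that median, MYCN was called in neither line and MYC was called lower in SK-N-BE2 only. Of those under it, MXD1 and MXI1 were called lower in NGP, and MXD4 and MGA were called in neither line. A link between these letters and the responses was not tested. Methylation itself was not measured in these libraries.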

How the data were processed

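RNA-seq libraries of 4 groups, 3 replicates each, were taken as the deposited read counts per gene. The authors, per the file headers, ran featureCounts 2.0.5 in paired mode over exons of GENCODE 33 protein-coding genes, grouped by gene name, with no strand option. Pairs were not merged, and 72.1% to 75.4% of counts from 1 to 20 were even, so most fragments count double. Per the submitters' processing notes, FastQC 0.11.5, Trimmomatic 0.36, HISAT2 2.1.0, Subread 1.5.3 and GRCh38 (hg38) were also used.

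Each line was fitted separately with edgeR 4.0.16 (R 4.3.3, limma 3.58.1): TMM scaling, filterByExpr with a minimum count of 10, the quasi-likelihood test and Benjamini-Hochberg adjustment over all genes, with calls under 0.05. Differences between the responses and between DMSO groups came from a joint fit of all 12 libraries. The fits were run on simulated data in which far fewer genes changed than were called here, so that check does not cover shifts this broad. For the DMSO comparison, the simulated lines otherwise had equal levels. CPM values used TMM scaling over all 12 libraries. Depth was 47242379 to 58159937 reads per library, which with 3 replicates limits low genes such as MYC. Replicates of a group differed by more than counting noise and were kept separate.

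Alternatives were DESeq2 1.42.0, its size factors within edgeR, no filter on low counts, a filter at a mean of 1 CPM, counts halved, a joint fit for the responses, the replicate number as a block, and leaving out each library. Summed levels were also computed from library totals. Members and lists were chosen with earlier results of these data known. Of 118 genes in 11 other lists, 117 were found. Lists are given as counts, with names for up to 3 genes called in both lines with 1 sign and no overlap of replicates, up to 2 with opposite signs and up to 2 called in 1 line only (mean of at least 5 CPM in 1 group), by size of change, and 54 genes met that rule. Some genes that the rule names are not reported here, and counts of lists include them. Lists of 3 or fewer were named whole. Genes with over 10% of exon length shared with another GENCODE 44 gene are called uncertain. Proliferation and cell type marker lists are given as sums.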

Additional observations from a re-analysis of the deposited data

Results flagged for a closer look

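The response to STM2457 differed between SK-N-BE2 and NGP, by the interaction term of edgeR's joint fit of all 12 libraries, for 3 members and for the genes of the pathway lists named here. Values are log2 differences, SK-N-BE2 response minus NGP response, at an adjusted p under 0.05 over all genes. Among the members these were MXD1 at 1.83, MXI1 at 0.50 and MXD4 at 0.62.

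Among coactivators, the response was higher in SK-N-BE2 for RUVBL1 (0.67) and ACTL6A (0.46) and lower for KAT2A (-1.03) and KAT5 (-0.60). In the SIN3 complex the difference was 0.42 for RBBP7, 0.59 for ARID4B, 0.46 for HDAC2 and -0.85 for ING2. In PRC1.6 it was 0.55 for TFDP2 and 0.34 for E2F6. Among genes of MYC protein stability, CIP2A differed by 0.99, PLK1 by -0.44, SKP2 by -0.82 and USP28 by -0.78.

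Of the activated targets, the response was higher in SK-N-BE2 for TFRC (0.62), TERT (1.34), MCM7 (0.87), NME1 (0.95) and ODC1 (1.44), and lower for LDHA (-1.87), NPM1 (-0.70) and EIF4A1 (-0.64). Of the repressed targets, it was higher for TGM2 (1.24) and NGFR (1.94) and lower for CDKN1A (-0.69) and CLU (-0.71). In the MLX arm, TXNIP differed by -2.64 and ARRDC4 by -0.47.

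Without 1 library, the difference kept its call in 4 of 12 fits for MXD4, 5 for ARRDC4, 3 for KAT5, 9 for RBBP7, 2 for E2F6, 4 for PLK1, 8 for TGM2 and 11 each for TFRC, NME1 and EIF4A1, and in all 12 for the other genes named here. RUVBL1, KAT2A, KAT5, ARID4B, PLK1, NME1, EIF4A1 and NGFR share exon length with another gene and are uncertain.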

How the results depend on the processing

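Of 360 values of single members recomputed without 1 library, 295 kept direction and side of the threshold, 42 lost their call, 7 gained one and 16 changed sign, and of 258 under the other alternatives 246 kept both, 4 lost a call, 4 gained one and 4 changed sign. Without 1 library, the number of members called ran from 3 to 5 in SK-N-BE2, from 4 to 6 in NGP, from 2 to 4 for the difference between the responses and from 5 to 8 between DMSO groups. None of the values that changed sign was called with all libraries. MYCN in NGP had -0.0017 with no filter and ran from -0.056 to 0.060 without 1 library. The MYCL difference had 0.0038 with no filter and ran from -0.21 to 0.24. Without 1 library, MXD3 in SK-N-BE2 ran from -0.019 to 0.35, MYC in NGP from -0.31 to 0.61, MGA in NGP from -0.17 to 0.22, the MYCN difference from -0.15 to 0.0021 and the MNT difference from -0.11 to 0.14. The cause was not tested, beyond the smaller number of samples.

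Replicate numbers did not pair the samples, with correlations of same-numbered deviations in SK-N-BE2 of -0.06, 0.09 and 0.03, and in NGP of 0.01, -0.07 and 0.02. With the replicate number as a block, 6 members were called in SK-N-BE2, 6 in NGP, 3 for the difference and 7 between DMSO groups, MYCN in NGP had -0.0010 and the MYCL difference 0.0218. The block added MXD4 in SK-N-BE2 (0.25, adjusted edgeR p 0.0421) and ended the MAX call between DMSO groups (adjusted edgeR p 0.0844). MAX there was also lost with no filter (adjusted edgeR p 0.0693), and the MXD4 difference with a mean of at least 1 CPM (0.60, adjusted edgeR p 0.0535). Over all genes, leaving out 1 library gave 3816 to 7897 calls in NGP, with 7897 without DMSO replicate 1 against 5671 with it. MYC had at most 26 reads in an NGP library, so only a large change would have been detectable there.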
